A study of Mus musculus with 12 samples.

Results

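The genes described here are 9 genes around lipoprotein lipase, namely Angptl8, Angptl4, Lpl, Lipc, Lipg, Gpihbp1, Apoc2, Apoc3 and Apoa5, in mouse liver RNA. They were taken by gene symbol from a deposited table of 54532 genes, where each symbol matched 1 row. The genes were chosen with earlier results of these data known. All 12 libraries came from livers of wild-type mice on chow, 9 days after an adenovirus was given, and they form 4 groups of 3. ANG8 received a virus for overexpression of ANGPTL8, and Ad_GFP received the control virus of that arm, which by its name carries green fluorescent protein. The shANG8 group received a virus for ANGPTL8 knockdown, and shCtrl received its control hairpin virus. Every animal thus carried an adenovirus, and uninfected liver was not analysed here. The sources used here do not give the promoter of either virus, the species of the ANGPTL8 sequence, or the age and sex of the mice. Whether each library came from its own mouse is not stated either, so the p-values cover the spread between these libraries, part of which may be technical.

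The product of Lpl, lipoprotein lipase, splits the triglyceride of circulating lipoproteins on the wall of capillaries, mainly in fat, muscle and heart, where GPIHBP1 carries it across the endothelium and anchors it. ANGPTL4 is an inhibitor of this lipase made in fasting, and ANGPTL8 is a feeding-induced protein of liver and fat that acts together with another member of its family. APOC2 is the cofactor that lipoprotein lipase needs, APOC3 slows lipolysis and particle uptake, and APOA5 promotes lipolysis. Adult hepatocytes make little lipoprotein lipase. Their own secreted lipase is LIPC, hepatic lipase, which acts on remnants and high-density lipoproteins, and LIPG, endothelial lipase, cleaves the phospholipids of high-density lipoproteins.

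Of the 9 genes, 4 lie on chromosome 9 (Angptl8, Lipc, Apoc3 and Apoa5), and RefSeq promoter windows were at hand for 4 of the 9. The windows of Angptl8, Lipc and Apoa5, the called genes among these, are shown for the 250 bases before an annotated start, from RefSeq on GRCm38.p6, 5′ to 3′ on the strand of the gene. Capitals mark TATAAA, the core promoter box, CACGTG, the E-box, AGGTCA, a nuclear receptor half-site, and GTTAAT, an HNF1 half-site, searched on both strands. Lipc has windows for a start at the end of the gene span and for a start inside it, and of the overlapping windows of Apoa5 the upstream one is shown.
Angptl8, chr9:21835260-21835509, plus strand: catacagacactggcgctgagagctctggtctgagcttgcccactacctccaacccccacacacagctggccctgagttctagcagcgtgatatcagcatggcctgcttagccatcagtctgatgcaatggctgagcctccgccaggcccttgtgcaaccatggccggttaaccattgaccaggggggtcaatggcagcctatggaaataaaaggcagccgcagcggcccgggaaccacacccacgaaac
Lipc, first start, chr9:70952222-70952471, minus strand: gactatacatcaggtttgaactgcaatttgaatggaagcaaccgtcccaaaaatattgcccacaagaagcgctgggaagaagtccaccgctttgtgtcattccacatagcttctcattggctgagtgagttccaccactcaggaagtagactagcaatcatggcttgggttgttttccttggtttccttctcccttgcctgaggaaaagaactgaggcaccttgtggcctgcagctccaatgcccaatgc
Lipc, inner start, chr9:70934809-70935058, minus strand: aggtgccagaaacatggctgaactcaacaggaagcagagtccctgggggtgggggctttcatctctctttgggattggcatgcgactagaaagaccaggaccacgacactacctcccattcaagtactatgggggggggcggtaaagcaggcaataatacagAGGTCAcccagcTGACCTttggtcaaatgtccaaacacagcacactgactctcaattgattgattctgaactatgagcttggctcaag
Apoa5, chr9:46268358-46268607, plus strand: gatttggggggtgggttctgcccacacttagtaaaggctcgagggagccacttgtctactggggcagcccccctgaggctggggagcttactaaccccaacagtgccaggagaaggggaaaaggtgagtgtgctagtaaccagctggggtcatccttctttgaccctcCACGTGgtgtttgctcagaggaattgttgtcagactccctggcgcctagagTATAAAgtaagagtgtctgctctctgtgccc
The Angptl8 window and the first Lipc window held none of the 4 letter strings. The inner Lipc window held AGGTCA at -88 and, on the other strand, at -76. The Apoa5 window held TATAAA at -31 and CACGTG at -82. Of 27025 RefSeq promoter windows of this length, 13.0% held TATAAA, 6.05% CACGTG, 13.8% AGGTCA and 6.52% GTTAAT. A match is a description of the letters and no evidence of binding.

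Libraries held 12537083 to 15144312 counts, and 14686 genes, all 9 described here among them, passed the filter on low counts. Within each group the libraries varied beyond sampling error (chi-square 14.5 to 149.6 per gene for a pair). The ANG8 group was uneven. Genes of the mitochondrial genome took 39.0%, 43.8% and 22.5% of the counts in ANG8 replicates 1, 2 and 3, against 19.8% to 34.9% in Ad_GFP, 19.3% to 22.9% in shANG8 and 22.9% to 24.2% in shCtrl. The tissue label fits the markers, since Alb, the albumin gene of hepatocytes, averaged 22439.9 CPM in ANG8, 33210.2 CPM in Ad_GFP, 42354 CPM in shANG8 and 41146 CPM in shCtrl. Levels are TMM-scaled CPM, counts scaled to a common library total, unless another scale is named.

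The overexpression comparison, ANG8 minus Ad_GFP, asked how a virus labelled for ANGPTL8 overexpression goes with the lipase genes of the liver. Lpl and Angptl8 rose, and Lipc, Apoc3 and Apoa5 fell, so 5 of the 9 genes passed an edgeR adjusted p of 0.05. Over all 14686 genes 13.5% passed, 7.08% higher and 6.39% lower. The libraries of both groups did not overlap for 2 of the 9 genes higher in ANG8 and for 4 lower (Lipc, Lipg, Apoc3 and Apoa5), where 34.1% of all genes had no overlap, 17.9% higher and 16.2% lower. An unadjusted p under 0.05 was reached by 7 of the 9 genes and by 27.7% of all genes. The median log2 fold change of the 9 genes was -0.78, against -0.00 over all tested genes. Without Ad_GFP replicate 1, 2 or 3, or without ANG8 replicate 2, 3 of the 9 passed, because Angptl8 and Apoc3 then missed the threshold.

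The knockdown comparison, shANG8 minus shCtrl, asked the same of a virus labelled for ANGPTL8 knockdown. None of the 9 genes passed the edgeR test, 1 had an unadjusted p under 0.05, DESeq2 called 1 (Angptl8) and voom called 0. Over all genes, 28 passed, which is 0.191% (0.0613% higher and 0.129% lower), and 7.93% had an unadjusted p under 0.05. Libraries did not overlap for Angptl8, lower in shANG8, and for Apoa5, higher in shANG8, and 12.9% of all genes had no overlap, 6.16% higher and 6.78% lower. The median log2 fold change of the 9 genes was 0.21, against 0.01 over all genes. The overexpression effect minus the knockdown effect passed for Angptl8, Lpl, Lipc and Apoa5, 4 of the 9 genes, where 6.62% of all genes passed (3.72% above 0 and 2.90% below 0).

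**Figure D1:**
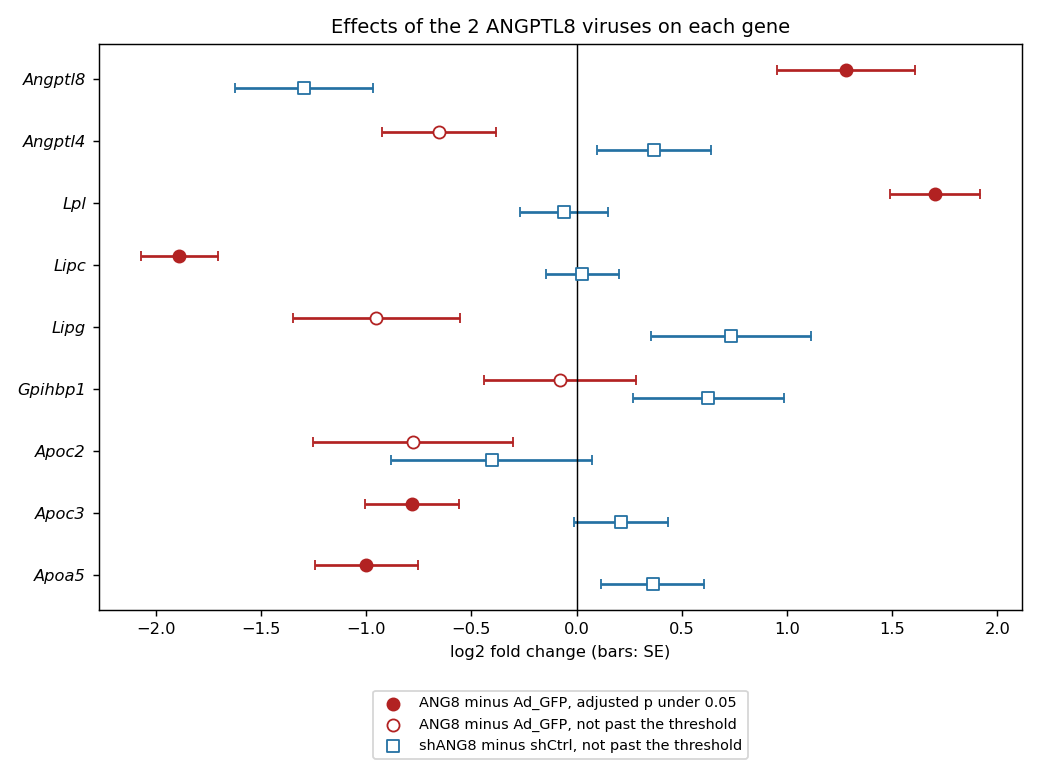
Log2 fold change of each gene (points) with its standard error (bars) for ANG8 minus Ad_GFP (circles) and shANG8 minus shCtrl (squares). Filled circles mark the 5 genes with an adjusted p under 0.05; Lpl lies farthest to the right at 1.71 and Lipc farthest to the left at -1.89, while both lie near 0 in the knockdown comparison.

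Among the ANGPTL genes, Angptl8 itself checks the labels (ENSMUSG00000047822, GRCm38 chromosome 9, 21835510 to 21837347, plus strand, protein-coding). Its level was 165, 314 and 172 CPM in ANG8, against 96.8, 80.4 and 90.0 CPM in Ad_GFP. Every ANG8 library lay above every Ad_GFP library, with ANG8 replicate 2 apart from the other two. The log2 fold change was 1.28 (SE 0.33, edgeR adjusted p = 0.0201), and it ranged from 0.93 to 1.45 over 20 alternatives, with adjusted p from 6.37e-08 to 0.0973. Leaving out any 1 Ad_GFP library ended the call (adjusted p of 0.0598, 0.0786 and 0.0538 for replicates 1, 2 and 3). So did leaving out ANG8 replicate 2 (0.0732) and fitting the mitochondrial share (0.0973). A transgene of another species or without the untranslated ends would be counted in part or not at all, so this level need not be that of the transgene.

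In the hairpin arm Angptl8 stood at 144, 143 and 79.2 CPM in shANG8, against 340, 391 and 167 CPM in shCtrl. The highest shANG8 library lay under the lowest shCtrl library, although shCtrl replicate 3 came close to the higher shANG8 libraries. The log2 fold change was -1.29 (SE 0.33), with an edgeR adjusted p of 0.235. DESeq2 called it (adjusted p = 0.00936), as did edgeR with low genes kept in (1.87e-07) or when shCtrl replicate 3 was dropped (0.0335), while its alternatives reached up to 0.592.

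The order of the group means of Angptl8 was shCtrl (299 ± 117 CPM, SD, n = 3), ANG8 (217 ± 84.0), shANG8 (122 ± 37.1) and Ad_GFP (89.1 ± 8.24). The control hairpin virus thus went with more Angptl8 than the overexpression virus, although their libraries overlapped, and the libraries of shANG8 and Ad_GFP overlapped too. shCtrl minus Ad_GFP was 1.75 (SE 0.33), the fifth smallest p of all genes, with an adjusted p of 0.338 in a comparison where edgeR called 0 genes (0.0%) and voom 0. DESeq2 called 46, and 8.76% of genes (1286) had an unadjusted p under 0.05, as had 2 of the 9. For Angptl8 the adjusted p was 0.000283 by DESeq2, 1.16e-12 with low genes kept in and 0.0446 when shCtrl replicate 3 was dropped, in a range up to 0.887. Libraries of the control viruses did not overlap for Angptl8, higher in shCtrl, and Angptl4, lower in shCtrl, and 16.1% of all genes had no overlap, 7.66% higher and 8.45% lower. This comparison uses the control libraries of both ANGPTL8 comparisons. The other 8 genes did not pass in it. Angptl8 lies inside the span of Dock6 on the opposite strand but shares no exon base with it, and Dock6 had 473 to 802 counts a library and a log2 fold change of -0.09 (adjusted p = 0.823) under overexpression.

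Angptl4, the fasting-induced inhibitor (ENSMUSG00000002289, chromosome 17, 33773750 to 33781575, minus strand), did not move with Angptl8 in a way that passed the test. Its level was 77.4, 56.6 and 122 CPM in ANG8, against 108, 131 and 163 CPM in Ad_GFP. Only ANG8 replicate 3 overlapped the control libraries. The log2 fold change of -0.65 (SE 0.27) had an edgeR adjusted p of 0.127. Without ANG8 replicate 3 it was -1.02 (adjusted p = 0.0194), and without the filter -0.64 (0.0172), but without ANG8 replicate 2 it was -0.42 (0.382).

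In the knockdown arm Angptl4 had 79.1, 102 and 136 CPM in shANG8, against 85.8, 62.5 and 98.0 CPM in shCtrl. The groups overlapped, and the log2 fold change was 0.37 (SE 0.27, adjusted p = 0.804). Between the control viruses Angptl4 differed by -0.71 (SE 0.27, adjusted p = 0.475). The group means ran in the order Ad_GFP (134 ± 27.7 CPM), shANG8 (106 ± 28.8), ANG8 (85.2 ± 33.3) and shCtrl (82.1 ± 18.1), and all neighbours in this order overlapped. Per length, Angptl4 reached 0.119 ± 0.0696 of the Angptl8 level in ANG8 and 0.400 ± 0.0948 in Ad_GFP, and 0.262 ± 0.167 in shANG8 and 0.0876 ± 0.0590 in shCtrl (SD, n = 3).

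**Figure D2:**
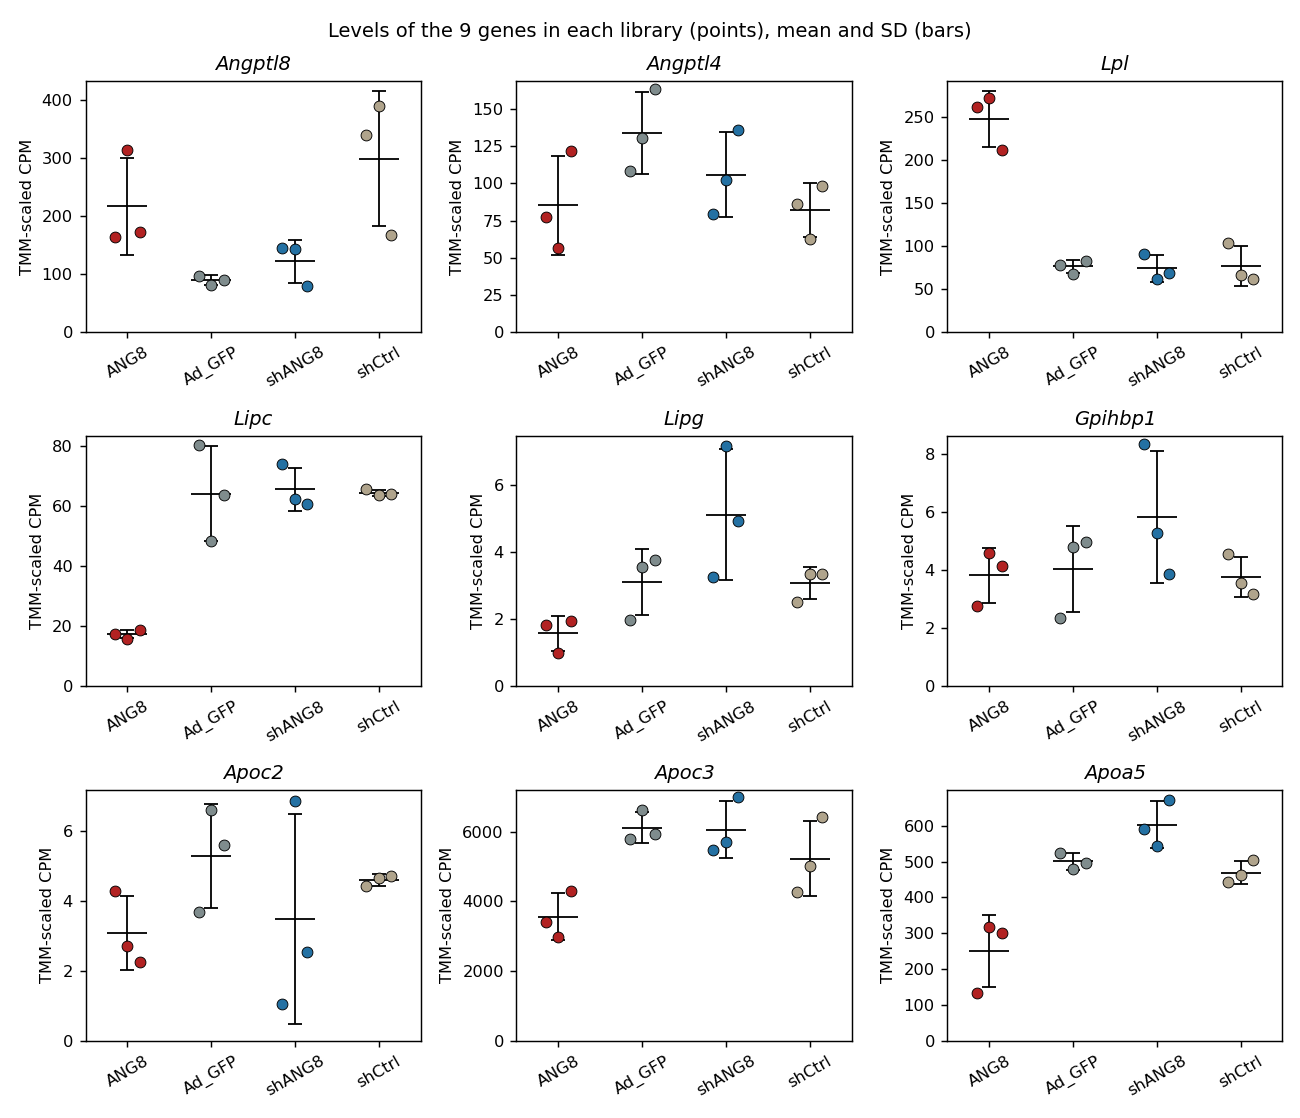
Level of each of the 9 genes in TMM-scaled CPM (vertical axes from 0) in the 3 libraries of each group (points), with the group mean and SD (bars). The 3 ANG8 libraries stand above all others for Lpl (211 to 271 CPM) and below all others for Lipc (15.9 to 18.7 CPM).

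Of the lipases, Lpl (ENSMUSG00000015568, chromosome 8, 68880491 to 68907448, plus strand) rose most under overexpression. It had 261, 271 and 211 CPM in ANG8, against 78.1, 67.2 and 82.4 CPM in Ad_GFP. No library of one group came near those of the other. Lpl changed by 1.71 on the log2 scale (SE 0.21, edgeR adjusted p = 0.000138), a fold of 3.26, and it stayed between 1.62 and 1.79 and was called in 20 of 20 alternatives. In the knockdown arm Lpl had 90.9, 61.8 and 68.1 CPM in shANG8, against 103, 65.8 and 61.2 CPM in shCtrl. These groups overlapped, with a log2 fold change of -0.06 (SE 0.21, adjusted p = 0.976) that turned positive without shCtrl replicate 1 or shANG8 replicate 2.

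Behind ANG8, the means of Lpl in shCtrl (76.7 ± 23.1 CPM), Ad_GFP (75.9 ± 7.82) and shANG8 (73.6 ± 15.3) differed by less than their SD. Macrophages also express Lpl, and most of their listed markers were also higher in ANG8 than in Ad_GFP. Among 10 markers of macrophages and Kupffer cells, 8 rose and 0 fell in ANG8, where 7.08% of all genes rose and 6.39% fell. Their median log2 fold change was 0.98, against -0.00 over all genes. Their summed level was 663, 728 and 773 CPM in ANG8, against 298, 294 and 392.0 CPM in Ad_GFP. It was 209 to 378 CPM in shANG8 and 199 to 260.5 CPM in shCtrl. Within ANG8, replicate 3 had the highest sum (773 CPM) and the lowest Lpl (211 CPM). In shANG8, replicate 1 was highest in both (378 and 90.9 CPM). Cd5l, a secreted protein of tissue macrophages and the highest of the list in ANG8, averaged 262 CPM in ANG8 and 83.4 CPM in Ad_GFP, and Vsig4, the lowest in ANG8, 9.09 CPM in ANG8 and 4.74 CPM in Ad_GFP. The part of these cells in the Lpl result was not tested, and in bulk liver more or fewer cells of a type and more or less RNA per cell cannot be told apart. Fat tissue also expresses Lpl. Of the 8 adipocyte markers, Adipoq, Plin1 and Lep had at most 8, 13 and 14 counts in any library and Retn had 0 in all. Adipoq, Plin1 and Lep had 1, 14 and 9 counts over the ANG8 libraries and 7, 2 and 16 over the Ad_GFP libraries. Fabp4 and Cfd, on the same list, averaged 15.5 and 1.15 CPM in ANG8 and 5.38 and 0.727 CPM in Ad_GFP. Car3 and Slc2a4 went the other way, at 1201 and 1.73 CPM in ANG8 and 2608 and 17.5 CPM in Ad_GFP. The part of fat in the Lpl result was not tested.

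Lipc, which encodes hepatic lipase (ENSMUSG00000032207, chromosome 9, 70798128 to 70952226, minus strand), moved the other way. It had 17.3, 15.9 and 18.7 CPM in ANG8, against 80.3, 48.5 and 63.7 CPM in Ad_GFP. The ANG8 libraries lay close together and far below the control libraries. Lipc changed by -1.89 on the log2 scale (SE 0.18, edgeR adjusted p = 4.39e-05), a 3.71-fold lower level and the smallest p of all 14686 genes in this comparison. It stayed between -2.06 and -1.70 and was called in 20 of 20 alternatives.

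In the knockdown arm Lipc had 74.0, 62.3 and 60.9 CPM in shANG8, against 65.6, 63.8 and 64.1 CPM in shCtrl, with a log2 fold change of 0.03 (SE 0.17, adjusted p = 0.989) whose sign changed in 3 of 20 alternatives. The means of shANG8 (65.7 ± 7.18 CPM), shCtrl (64.5 ± 0.987) and Ad_GFP (64.2 ± 15.9) differed by less than the larger SD. Hepatocyte markers moved with Lipc. Of 10 such markers, 8 fell and 0 rose in ANG8, where 6.39% of all genes fell and 7.08% rose. Their median log2 fold change was -1.23, against -0.00 over all genes. Their summed level was 19592, 20456 and 43132 CPM in ANG8, against 51559.5, 38085 and 48639 CPM in Ad_GFP. Alb alone made up 78.4% to 82.6% of this sum in ANG8 and 70.1% to 75.4% in Ad_GFP, and it did not pass the test (-0.57, SE 0.33, adjusted p = 0.291). The other 9 markers summed to 4233, 4128 and 7499.7 CPM in ANG8, against 15416, 11261 and 11976 CPM in Ad_GFP, with no overlap, a split chosen after the data were seen. ANG8 replicate 3 lay highest of its group in this sum, with 7 of the 10 markers below every Ad_GFP library, and highest in Lipc. The part of the hepatocyte markers in the Lipc result was not tested. Without replicate 3 the Lipc log2 fold change was -1.97 (adjusted p = 0.000147) and that of Lpl 1.79 (0.000247).

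Per length, the rank of both lipases was exchanged. The ratio of Lpl to Lipc was 3.09, 3.503 and 2.32 in ANG8, against 0.1995, 0.284 and 0.265 in Ad_GFP. It was 0.252, 0.203 and 0.230 in shANG8, against 0.323, 0.212 and 0.196 in shCtrl. Lpl thus exceeded Lipc in all 3 ANG8 libraries and in none of the other 9. The deposited length of Lpl, 10478 bases, counts every annotated exon, while its principal coding transcript in GENCODE vM21 has 4115 bases. With principal transcript lengths, a choice made after the data were seen, the mean ratios were 6.75 ± 1.37 in ANG8, 0.568 ± 0.101 in Ad_GFP, 0.519 ± 0.0554 in shANG8 and 0.554 ± 0.157 in shCtrl (SD, n = 3). The ratio within a library does not depend on its depth or scaling, and no test was made on it.

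**Figure D3:**
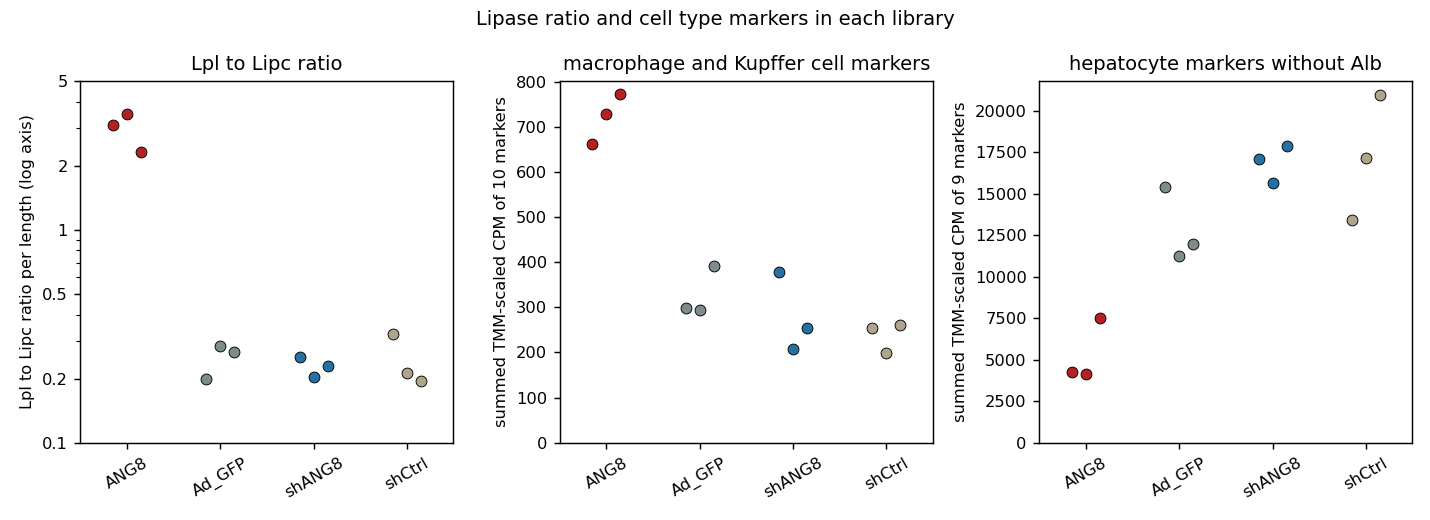
Left, ratio of Lpl to Lipc per length on a log axis; middle and right, summed TMM-scaled CPM of 10 macrophage and Kupffer cell markers and of 9 hepatocyte markers, Alb left out; each point is 1 library of the group named below. The ratio is 2.32 to 3.503 in ANG8 and 0.196 to 0.323 elsewhere, macrophage sums are highest in the 3 ANG8 libraries, and hepatocyte sums are lowest there (4128 to 7499.7 CPM).

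Endothelial lipase, Lipg (ENSMUSG00000053846, chromosome 18, 74939322 to 74961263, minus strand), was rare, with 12 to 91 counts a library. It had 1.81, 0.984 and 1.94 CPM in ANG8, against 1.96, 3.55 and 3.77 CPM in Ad_GFP. The highest ANG8 library lay just under the lowest Ad_GFP library. This difference, -0.95 on the log2 scale (SE 0.40), had an adjusted p of 0.127 and passed in 0 of 20 alternatives. In the knockdown arm it had 3.26, 7.16 and 4.92 CPM in shANG8, against 2.51, 3.35 and 3.34 CPM in shCtrl, a log2 fold change of 0.74 (SE 0.38, adjusted p = 0.672) with overlapping libraries. Means ran in the order shANG8 (5.11 ± 1.96 CPM), Ad_GFP (3.09 ± 0.986), shCtrl (3.07 ± 0.482) and ANG8 (1.58 ± 0.519), and shCtrl and ANG8 were the only neighbours without overlap.

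Gpihbp1, the capillary anchor of lipoprotein lipase (ENSMUSG00000022579, chromosome 15, 75596628 to 75599481, plus strand), was as rare, with 37 to 110 counts a library. It had 2.75, 4.59 and 4.12 CPM in ANG8, against 2.34, 4.81 and 4.98 CPM in Ad_GFP. The log2 fold change of -0.08 (SE 0.36, adjusted p = 0.918) turned positive in 3 of 20 alternatives. The shANG8 libraries had 8.34, 5.27 and 3.87 CPM, against 4.55, 3.55 and 3.19 CPM in shCtrl, a log2 fold change of 0.63 (SE 0.36, adjusted p = 0.705). All neighbours in the order of its group means overlapped. In ANG8 minus Ad_GFP 13.5% of all genes passed by edgeR, and 27.7% had an unadjusted p under 0.05. Of 10 endothelial markers, 0 passed there by edgeR, 1 had an unadjusted p under 0.05, and DESeq2 and voom called 1 each. Their summed level was 147 to 178 CPM in ANG8, 131 to 178 CPM in Ad_GFP, 119 to 197 CPM in shANG8 and 109 to 146 CPM in shCtrl.

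The apolipoproteins of the group lie in 2 gene clusters, Apoc2 beside Apoe, Apoc1 and Apoc4 on chromosome 7, and Apoc3 and Apoa5 beside Apoa1 and Apoa4 on chromosome 9. Apoc3, the brake on lipolysis (ENSMUSG00000032081, chromosome 9, 46232933 to 46235636, minus strand), was the most abundant of the 9 genes. It had 3418, 2971 and 4301 CPM in ANG8, against 5788, 6633 and 5950 CPM in Ad_GFP. No libraries overlapped, and ANG8 replicate 3 was the highest of its group. The log2 fold change was -0.78 (SE 0.22, edgeR adjusted p = 0.0280). Dropping Ad_GFP replicate 1, 2 or 3 moved the adjusted p to 0.0558, 0.0997 and 0.0569, and dropping ANG8 replicate 1 or 2 moved it to 0.102 and 0.121, each past the threshold, while the fold change stayed between -0.96 and -0.66. In the knockdown arm Apoc3 had 5479, 5700.3 and 6998 CPM in shANG8, against 4265, 5021 and 6415 CPM in shCtrl, a log2 fold change of 0.21 (SE 0.22, adjusted p = 0.880) with overlapping libraries.

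Apoa5, the promoter of lipolysis (ENSMUSG00000032079, chromosome 9, 46268633 to 46271919, plus strand), fell with it. It had 133, 318 and 299 CPM in ANG8, against 525, 479 and 497 CPM in Ad_GFP. All ANG8 libraries lay below all control libraries, and replicate 1 lay lowest. Its change was -1.0001 on the log2 scale (SE 0.25, edgeR adjusted p = 0.0131), called in 20 of 20 alternatives, at -0.70 (adjusted p = 0.0437) without ANG8 replicate 1. In the knockdown arm Apoa5 had 591, 543 and 673 CPM in shANG8, against 442, 461 and 504 CPM in shCtrl. The lowest shANG8 library was above the highest shCtrl library, yet the difference of 0.36 on the log2 scale (SE 0.24) had an adjusted p of 0.763. Group means ran in the order shANG8 (602 ± 65.5 CPM), Ad_GFP (500.3 ± 23.2), shCtrl (469 ± 32.0) and ANG8 (250.1 ± 102). Ad_GFP and shCtrl overlapped, and the other neighbours did not. An antisense gene, Gm47544, covers 20.8% of the exonic bases of Apoa5 and had 0 counts in every library. How reads on shared bases were treated, and whether counting used strand, was not stated in these sources.

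The neighbours of Apoc3 and Apoa5 had lower mean levels in ANG8 too, but only Apoa1 passed. Apoa1, the main protein of high-density lipoproteins, fell (log2 fold change -0.96, adjusted p = 0.0484) with overlapping libraries. Apoa4 had -0.43 (SE 0.56, adjusted p = 0.682), also with overlapping libraries, and 69.8% of its exonic bases are shared with another gene. In the other cluster Apoc1 fell (-0.71, adjusted p = 0.0181), Apoc4 had -0.61 (0.0625) and Apoe -0.55 (0.229). The sum of the hepatocyte markers other than Alb, given with Lipc, was also lower in all 3 ANG8 libraries than in any Ad_GFP library, and its part in these values was not tested.

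Apoc2, the cofactor of lipoprotein lipase (ENSMUSG00000002992, chromosome 7, 19671579 to 19677941, minus strand), could not be measured well. Its neighbours Apoc1 and Apoc4 averaged 7165 and 441 TPM (transcripts scaled by length and library total) in ANG8 and 12175 and 694 TPM in Ad_GFP, but Apoc2 averaged 6.54 ± 2.20 TPM in ANG8 and 11.5 ± 2.43 TPM in Ad_GFP. On the same strand, the gene Gm44805 shares 79.5% of the exonic bases of Apoc2, and 78.3% of its 50-base stretches occur in Gm44805 transcripts. Gm44805 itself had 6 counts in all libraries together, and counters can leave out reads that 2 genes claim. The 14 to 89 counts of Apoc2 therefore need not give its true level. They gave 4.27, 2.70 and 2.24 CPM in ANG8, against 3.67, 6.59 and 5.58 CPM in Ad_GFP, and 1.06, 6.84 and 2.53 CPM in shANG8, against 4.41, 4.65 and 4.71 CPM in shCtrl. Neither difference passed, at -0.78 (SE 0.48, adjusted p = 0.314) and -0.40 (SE 0.48, adjusted p = 0.898), and the ratio of Apoc3 to Apoc2 is left aside for the same reason.

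Compared per length in TPM, the 9 genes ran from Apoc3 at the top to Lipg at the bottom. Apoc3 averaged 6267 ± 2171 TPM in ANG8 and 10839 ± 199.8 TPM in Ad_GFP (SD, n = 3). Angptl8 averaged 424 ± 108 TPM in ANG8 and 187 ± 32.8 TPM in Ad_GFP, and Apoa5 173 ± 76.3 TPM in ANG8 and 358 ± 46.7 TPM in Ad_GFP, so these changed places. Angptl4 had 47.2 ± 25.6 TPM in ANG8 and 73.4 ± 15.5 TPM in Ad_GFP. Lpl had 40.8 ± 2.15 TPM in ANG8 and 13.1 ± 2.28 TPM in Ad_GFP, and Lipc 14.2 ± 3.34 TPM in ANG8 and 54.5 ± 17.8 TPM in Ad_GFP. Gpihbp1 and Lipg closed the order, at 2.61 ± 0.718 and 0.751 ± 0.334 TPM in ANG8 and 2.81 ± 0.928 and 1.45 ± 0.416 TPM in Ad_GFP. TPM values share the total of a library, so a large mitochondrial share lowers all of them.

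**Figure D4:**
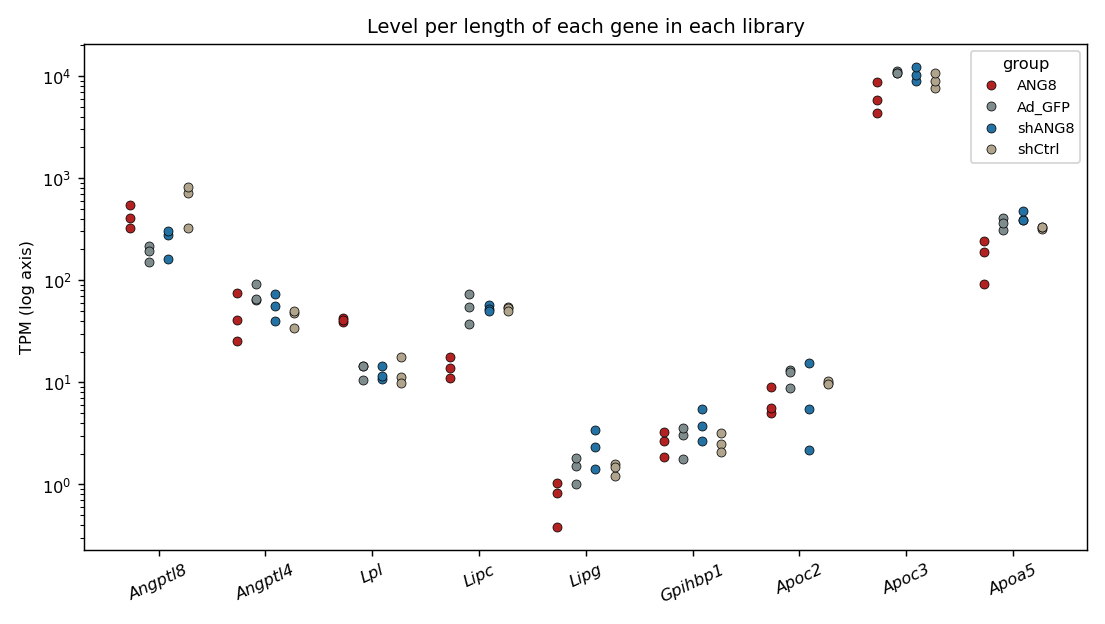
Level of each gene per length in TPM (log axis) in every library, in the order ANG8, Ad_GFP, shANG8 and shCtrl within each gene. Mean levels run from 0.751 TPM for Lipg in ANG8 to 10839 TPM for Apoc3 in Ad_GFP, and in ANG8 alone Lpl lies above Lipc.

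Other genes of lipase biology were followed in 6 lists, of which 63 genes were tested. In ANG8 minus Ad_GFP 17 of the 63 passed by edgeR (22 by DESeq2, 18 by voom), against 13.5% of all genes (7.08% higher and 6.39% lower). In shANG8 minus shCtrl 0 of the 63 passed by edgeR, DESeq2 or voom, where edgeR called 0.191% of all genes. An unadjusted p under 0.05 was reached there by 3 of the 63 and by 7.93% of all genes. Of 9 other lipases tested from a list of 12, 4 fell and 0 rose under overexpression, with a median log2 fold change of -0.58. These were Pnpla3, a lipid droplet protein (-1.77, SE 0.52, adjusted p = 0.0311), the carboxylesterase Ces3a (-1.31, SE 0.28, 0.00588), Aadac, a deacetylase of the endoplasmic reticulum (-0.94, SE 0.22, 0.0107), and Mgll, which cleaves monoglycerides (-0.58, SE 0.17, 0.0333). Pnpla2 and Lipe, the lipases of fat mobilisation, had -0.08 (adjusted p = 0.807) and -0.37 (0.183).

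Of 9 genes for lipase maturation, cleavage and anchoring, 1 fell and 0 rose, where 6.39% of all genes fell and 7.08% rose. The gene that fell was Furin, a protease that cleaves ANGPTL proteins and lipases (-0.64, SE 0.19, adjusted p = 0.0348). Lmf1, which lipoprotein and hepatic lipase need to fold, had -0.31 (adjusted p = 0.257). Of the other ANGPTL genes listed, Angptl2 had 0.33 (adjusted p = 0.668) and Angptl6 -0.12 (0.882), and Angptl1 and Angptl7 were too low to test.

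Of 18 lipoprotein particle and receptor genes, 5 fell and 1 rose, with a median of -0.38. Over all genes, for this list and those that follow, 6.39% fell and 7.08% rose, with a median of -0.00. Apobec1, the editing enzyme of Apob messenger RNA, rose (0.65, SE 0.21, adjusted p = 0.0482). The falls with the smallest p, beside Apoa1 above, were Lcat, which esterifies cholesterol on high-density lipoproteins (-0.92, SE 0.17, adjusted p = 0.00232), Apoa2 (-1.22, SE 0.26, 0.00537), Apoc1 as given above, and Lrp1, a remnant receptor (-0.68, SE 0.21, 0.0438). Of 15 transcription factor genes, 3 fell, namely Mlxipl, the carbohydrate-responsive factor (-1.27, SE 0.34, adjusted p = 0.0271), Srebf1, the lipogenic factor downstream of insulin (-0.94, SE 0.19, 0.00319), and Creb3l3, a hepatic factor of triglyceride clearance (-0.58, SE 0.16, 0.0233). Ppard, a nuclear receptor for fatty acids, rose (0.83, SE 0.23, adjusted p = 0.0232), and 1 of 15 is near the share of all genes that rose. Of 10 PPAR targets, 2 fell and 0 rose, although the median of that list was 0.39.

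**Figure D5:**
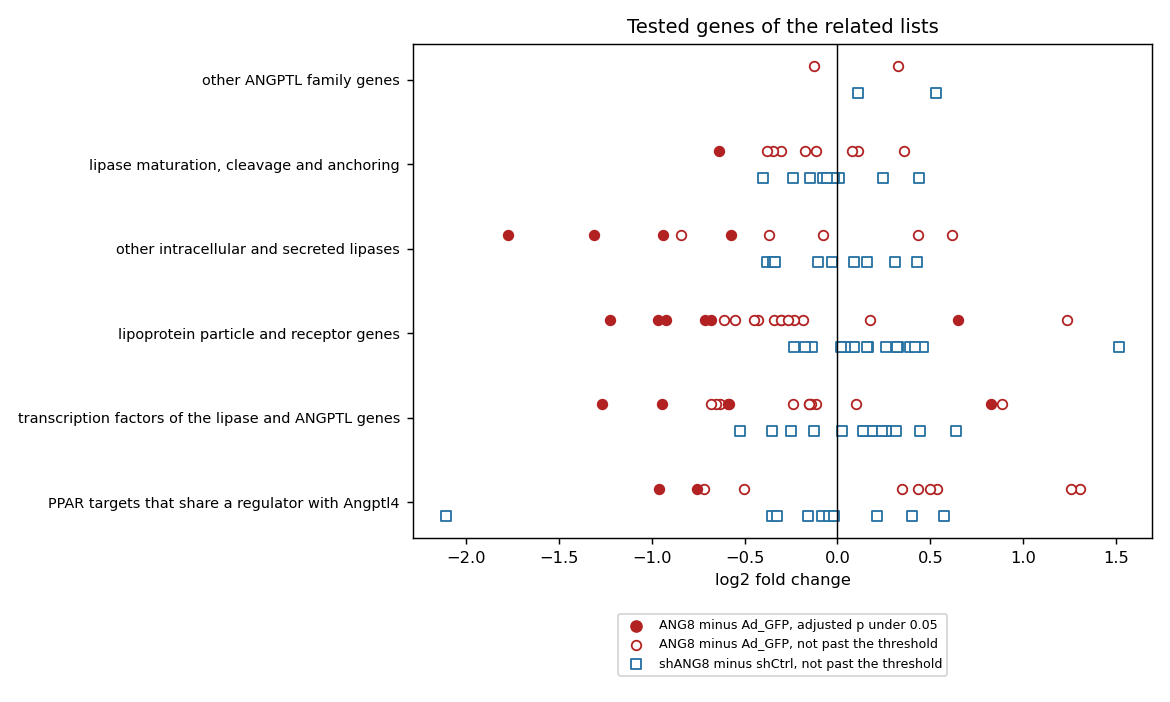
Log2 fold change of each tested gene of the 6 lists for ANG8 minus Ad_GFP (circles, filled where the adjusted p is under 0.05) and shANG8 minus shCtrl (squares). Filled circles lie mostly left of 0, and 0 of the 63 genes passed in the knockdown comparison, where 0.191% of all genes passed.

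Markers of further cell types were read in the same libraries. In ANG8 minus Ad_GFP 7.08% of all genes rose, 6.39% fell, and 27.7% had an unadjusted p under 0.05. Of 10 T and NK cell markers, 6 rose and 1, Cd4, fell in ANG8 (-1.17, SE 0.31, adjusted p = 0.0209), and their summed level was 122 to 144 CPM in ANG8, against 49.2 to 66.6 CPM in Ad_GFP. Of 10 stellate cell and fibroblast markers, 0 passed by edgeR, DESeq2 or voom, and 0 had an unadjusted p under 0.05, with sums of 74.2 to 135 CPM in ANG8 and 43.0 to 124 CPM in Ad_GFP. Of 8 adipocyte markers 4 could be tested. Fabp4, a fatty acid carrier that macrophages also make, rose (1.53, SE 0.42, adjusted p = 0.0264), and Car3 and Slc2a4 fell. Their sum of 1168 to 1274 CPM in ANG8 and 2344 to 2944 CPM in Ad_GFP was nearly all Car3, which hepatocytes also express (1201 CPM in ANG8 and 2608 CPM in Ad_GFP). Skeletal muscle markers summed to 1.67 to 2.61 CPM in ANG8, 1.48 to 6.90 CPM in Ad_GFP, 1.65 to 2.60 CPM in shANG8 and 1.64 to 2.20 CPM in shCtrl. The part of these cells in the values of the 9 genes was not tested.

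The genes whose levels followed 4 of the 9 most closely were ranked by the mean absolute difference of centred log2 CPM over the 12 libraries, among 10865 genes. For Lpl they were Serpina3g, a serine protease inhibitor (0.146), Dck, deoxycytidine kinase (0.155), and Cd44, a hyaluronan receptor (0.159), where the median gene had 0.701. Serpina3g averaged 113 CPM in ANG8 and 35.9 CPM in Ad_GFP. For Lipc they were Nat8f1 (0.145), Il1rap, the accessory chain of the interleukin-1 receptor (0.178), and Cmah, a sialic acid hydroxylase (0.186), where the median gene had 0.729. Nat8f1 averaged 31.7 CPM in ANG8 and 131 CPM in Ad_GFP.

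The nearest genes to Angptl4 were Gstt2, a glutathione transferase (0.190), Cox6b1, a subunit of cytochrome c oxidase (0.199), and Plin5, a lipid droplet protein (0.199), with a median gene at 0.465. Angptl8 had no such close partner. Its nearest genes were Trps1 (0.388), Herc3 (0.390) and Sort1, a sorting receptor (0.405), with a median gene at 0.712. Sort1 averaged 18.01 CPM in ANG8 and 14.7 CPM in Ad_GFP, and 15.7 CPM in shANG8 and 24.1 CPM in shCtrl. Its highest mean, like that of Angptl8, was thus in shCtrl. The closer genes, Trps1 and Herc3, had their highest means in ANG8, at 3.45 and 5.28 CPM, against 2.22 and 5.19 CPM in shCtrl.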

How the data were processed

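The authors deposited raw counts per gene, whole numbers that were not normalized, for 12 liver libraries. Per the submitters' processing notes, CASAVA 1.8.2 and featureCounts 1.5.0-p3 were used. The notes name the build mm9, but of 54409 gene identifiers found in GENCODE vM21, 53499 (98.3%) have identical GRCm38 coordinates in the deposited table, so positions are GRCm38, as deposited. The aligner was not given in the sources used here, nor was the strand setting. Beside these, the table held 0 count columns of other samples.

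Counts were filtered with filterByExpr, scaled by TMM and tested in edgeR 4.0.16 (R 4.3.3) with a robust quasi-likelihood fit over all 12 libraries. P-values were adjusted by Benjamini-Hochberg over 14686 genes, with calls at 0.05. SE is the absolute log2 fold change divided by the square root of F. TPM used the deposited gene lengths, and centred log2 CPM a prior count of 2. Named genes were the 9 genes, genes overlapping them, up to 4 called members of each list by smallest p, the 3 genes nearest in level to each of 4 genes, and the markers with the highest and lowest level. Apobec1, Cd4, Fabp4, Slc2a4 and Cfd were chosen after their values were seen. So were further genes named beside these (Apoa1, Apoa4, Apoc4, Apoe, Pnpla2, Lipe, Lmf1, Angptl1, Angptl2, Angptl6, Angptl7, Car3 and the low adipocyte markers). Alternatives were DESeq2 size factors, DESeq2 1.42.0, voom in limma 3.58.1, no filter on low counts, only the groups compared, mitochondrial genes left out or their share as a covariate, a replicate block, and each library left out. Some results for single genes of the lists are not reported here. The fit was also run on simulated counts, drawn with the spread that edgeR estimated from these libraries. They held no unevenness such as that of the ANG8 group, so they cannot show how the fit does on it. The genes and lists were chosen with earlier results of these data known.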

Additional observations from a re-analysis of the deposited data

Results flagged for a closer look

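For 4 of the 9 genes the effect of the overexpression virus (ANG8 minus Ad_GFP) differed from that of the knockdown virus (shANG8 minus shCtrl) in a test of the difference over all genes (edgeR). Lpl differed by 1.77 on the log2 scale (SE 0.30, adjusted p = 0.00301) and Lipc by -1.92 (SE 0.25, adjusted p = 0.00106), and both were called in 19 of 19 alternatives. Their knockdown effects lay near 0, at -0.06 and 0.03, so nearly all of these values came from the overexpression arm. Angptl8 differed by 2.58 (SE 0.46, adjusted p = 0.0070), also called in 19 of 19, with effects of like size in opposite directions. Its knockdown effect did not pass by itself (edgeR adjusted p = 0.235), and its mean was higher in shCtrl (299 CPM) than in ANG8 (217 CPM). Both control groups enter the difference, and shCtrl minus Ad_GFP was 1.75 for Angptl8 (SE 0.33, edgeR adjusted p = 0.338). The 2.58 is thus not only a gap between the ANGPTL8 viruses. Apoa5 differed by -1.36 (SE 0.35, adjusted p = 0.0266). Dropping Ad_GFP replicate 1, shCtrl replicate 1 or shCtrl replicate 2 ended this call, with adjusted p of 0.0560, 0.0675 and 0.0710. Apoc3 (-0.99, adjusted p = 0.0685), Lipg (-1.69, adjusted p = 0.0761) and Angptl4 (-1.02, adjusted p = 0.127) did not pass. Apoc3 passed by DESeq2 (adjusted p = 0.00803), by voom (0.0489), with a replicate block (0.0273) and without ANG8 replicate 3 (0.0334), 4 of 19 alternatives with a highest adjusted p of 0.171. Lipg passed by DESeq2 (0.0381) and without shANG8 replicate 1 (0.0486), 2 of 19 with a highest adjusted p of 0.185. Angptl4 passed without the filter on low counts (0.0129), with a replicate block (0.0119) and without ANG8 replicate 3 (0.0285). These were 3 of 19, with a highest adjusted p of 0.277.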

How the results depend on the processing

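Direction and call were kept by Lpl, Lipc and Apoa5 in ANG8 minus Ad_GFP in 20 of 20 alternatives, and Angptl8 and Apoc3 kept the call in 15 of 20. The labels do not state whether the replicate numbers pair the libraries. Same-numbered libraries deviated together with correlations of -0.067 to 0.186. Differently numbered libraries were not compared, so these values cannot decide it. With a replicate block, genes called were 2600, 55 in the knockdown (28 without it), 1550 in the difference of the effects (972) and 5 between the control viruses (0). Genes called of the 9 were then 6, 1, 6 and 1. The block gave Angptl8 an adjusted p of 0.0365 in the knockdown and 0.0421 between the control viruses, and Angptl4 0.0109 under overexpression. DESeq2 called 102, 1541 and 46 genes in the knockdown, the difference and between the control viruses, and no filter on low counts gave 132, 1510 and 96. Both called 1 of the 9 genes, Angptl8, in the knockdown and 1 between the control viruses. The mitochondrial share as a covariate gave 47 knockdown genes. With 1 library left out, overexpression called 995 to 2164 genes (1080 without Ad_GFP replicate 1, 1133 without Ad_GFP replicate 2, 995 without ANG8 replicate 1, 1307 without ANG8 replicate 2) and 3 to 6 of the 9. The knockdown called 21 to 39 genes and 0 to 1 of the 9, the difference 473 to 1227 and 3 to 6, and the control viruses 0 to 10 and 0 to 1. In the difference the counts were 592 without Ad_GFP replicate 1, 623 without Ad_GFP replicate 2, 473 without ANG8 replicate 1, 487 without shCtrl replicate 1 and 578 without shCtrl replicate 2. No sign turned for a called value. Among values near 0 that did not pass, Lipc in the knockdown was -0.0071 without the filter and -0.012 with the covariate, and Apoc2 in the difference 0.012 with voom. Between the control viruses Lpl was -0.019 with voom and -0.019 with the block, and Lipc -0.046 with the covariate. Lipg there was 0.046 with voom, 0.014 without the filter, 0.0073 without mitochondrial genes and 0.016 with the block. Over the libraries left out, Gpihbp1 ran from -0.36 to 0.11 under overexpression, Lpl from -0.26 to 0.21, Lipc from -0.086 to 0.077 and Apoc2 from -1.34 to 0.0018 in the knockdown, and Apoc2 from -0.78 to 0.56 in the difference. Values in the knockdown that kept their sign but moved by over 1.5 times ran from 0.14 to 0.52 for Angptl4, 0.41 to 0.95 for Lipg, 0.26 to 0.85 for Gpihbp1 and 0.081 to 0.38 for Apoc3. Between the control viruses Lpl ran from -0.25 to 0.17, Lipc from -0.14 to 0.20, Lipg from -0.25 to 0.16, Gpihbp1 from -0.37 to 0.086 and Apoc2 from -0.40 to 0.0042. Of 36 mean TPM levels, 35 moved by over 1 SD when mitochondrial genes were left out of the total. Leaving them out of the total raises the TPM of all other genes by construction. The cause of the other shifts was not tested. Lipg, Gpihbp1 and Apoc2 rest on 12 to 110 counts a library.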
